A study of Homo sapiens with 8 samples.

Results

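The genes described here are those of the proteasome and its partners. They were chosen by name from the 19305 RefSeq accessions counted in every library: a symbol of PSMA, PSMB, PSMC, PSMD, PSME, PSMF or PSMG followed by a digit, and at least 10 counts in at least 2 of the 8 libraries. A total of 50 symbols matched and 46 passed the minimum. The 46 hold 7 alpha and 7 beta subunits of the core, the immunoproteasome subunit PSMB10, 6 ATPases, 3 other subunits of the base, 8 subunits of the lid, 7 assembly chaperones and 5 activators or inhibitors. The other 2, PSMC3IP and PSME3IP1, match by name and are not subunits. Of the 4 that did not pass, PSMA8, a germ-cell alpha subunit, and PSMB9 had no count in any library, PSMB11, a thymus subunit, had at most 2 counts in a library, and PSMB8 had none in HEK293T and 1 to 4 in H9. PSMB8, PSMB9 and PSMB10 are the interferon-inducible catalytic subunits, so in these libraries only PSMB10 of the immunoproteasome could be followed.

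RNA was sequenced from 2 established human cell lines to ask what changes when eIF2A, a translation initiation factor that can deliver initiator tRNA, is depleted. HEK293T, an embryonic kidney line, was exposed to sodium arsenite, an oxidative stressor, and received either control siRNA or eIF2A siRNA. H9, a line of human embryonic stem cells, received either control shRNA or eIF2A shRNA, and no arsenite is named for it. Each of the 4 groups has 2 libraries, called replicates 1 and 2 here after the set number in their labels. All HEK293T libraries, controls included, were under arsenite, so a difference between the lines mixes the line, the stress and the type of RNA interference, which cannot be told apart. Whether the libraries of 1 group are separate cultures, and whether more than 1 siRNA or shRNA sequence was used, is not in the labels.

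The proteasome degrades proteins that carry ubiquitin chains. Its core particle is a barrel of outer alpha rings, which gate the entry, and inner beta rings, which hold the proteolytic sites. A regulatory particle sits on the barrel: its base, with a ring of ATPases, unfolds the substrate and feeds it in, and its lid removes the ubiquitin chain. Dedicated chaperones help assemble core and base, and alternative caps can take the place of the regulatory particle. When proteasome activity falls short, the transcription factor NRF1, the product of NFE2L1, is known to raise proteasome subunit genes through antioxidant response elements. Embryonic stem cells are known for high proteasome activity.

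Libraries held 21837052 to 32318668 gene counts, of which the 46 genes took 0.907 and 0.909% in the HEK293T controls, 0.954 and 0.969% with eIF2A siRNA, 0.896 and 0.898% in the H9 controls and 0.843% in both eIF2A shRNA libraries. Counts were brought to the same library size (CPM, scaled by edgeR's TMM factors) to compare levels. The factors were 0.9309 and 0.9232 in the H9 controls and 1.085 and 1.08 with shRNA. Falls in H9 are therefore larger in CPM than in shares of gene counts. In HEK293T the factors were 1.005 and 0.9849 in the controls and 1.001 and 1.002 with siRNA. The targeted transcript, EIF2A, went from 17.5 and 18.3 CPM (controls) to 5.58 and 5.98 CPM (siRNA) in HEK293T, and from 15.8 and 14.8 CPM (controls) to 5.03 and 4.67 CPM (shRNA) in H9. Its log2 fold change was -1.63 ± 0.095 (standard error, SE) in HEK293T and -1.66 ± 0.11 in H9. The H9 libraries carried the pluripotency markers (NANOG 48.1 to 52 CPM, LIN28A 2707 to 2977 CPM), and NANOG was at 0 in the HEK293T libraries. With the shRNA POU5F1 went from 162 and 195 CPM to 141 and 114 CPM, and DNMT3B from 1720 CPM in both controls to 1550 and 1556 CPM. SOX2 went from 86.5 and 80.6 CPM to 114 and 118 CPM, and L1TD1 from 73.7 and 70.6 CPM to 148 and 142 CPM. Of 3 kidney-lineage markers listed for HEK293T, PAX2 (4.91 to 6.19 CPM) and LHX1 (3.18 to 4.01 CPM) were above their H9 levels and PAX8 (at most 0.0871 CPM) was not. The HEK293T libraries also held CDX2 (75.4 to 83.2 CPM) and GATA4 (62.6 to 66.3 CPM) of the 6 genes listed as markers of differentiated cells, whose summed level was 169 to 182 CPM there, with SOX17 at 0, and 0.42 to 0.85 CPM in H9. A list of 4 fibroblast genes summed to 842 to 980 CPM in H9, mostly THY1, with COL3A1 at most 0.326 CPM, and it was lower with the shRNA (842 and 856 CPM) than in the controls (973 and 980 CPM). THY1 went from 788 and 794 CPM to 592 and 594 CPM, whereas COL1A1 went from 88.7 and 87.7 CPM to 118 and 124 CPM and COL1A2 from 96.1 and 97.8 CPM to 132 and 138 CPM. The part of these genes in the H9 results was not tested. Reads that fell in no counted feature made up 15.59 and 17.68% of the HEK293T control reads against 14.98 and 14.95% with siRNA, and 18.84 and 18.39% of the H9 control reads against 20.84 and 20.63% with shRNA. Their part in the results below was not tested.

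In the control libraries the beta ring was the most abundant class per length of transcript. Its median level was 355 CPM per kb in HEK293T and 386 CPM per kb in H9, against 77.5 and 95.9 CPM per kb for the alpha ring, 132 and 139 CPM per kb for the ATPase ring and 84.2 and 70.9 CPM per kb for the lid. PSMB4, a structural beta subunit, was highest in both lines, at 591 and 676 CPM per kb. Subunits that are present in equal number in a regulatory particle spanned a wide range of transcript levels: among the ATPases PSMC3 stood at 228 CPM per kb and PSMC6 at 9.62 CPM per kb in the HEK293T controls, and in the lid PSMD8 stood at 340 CPM per kb and PSMD14, the deubiquitinase of the lid, at 15.6 CPM per kb. PSME4, which encodes an alternative cap, was low in both lines, at 1.57 and 2.86 CPM per kb. Lengths are those of GENCODE transcripts that carry the counted accession, and the 3 members without such a length (PSMA4, PSMC1 and PSME3IP1) are left out of these levels.

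**Figure D1:**
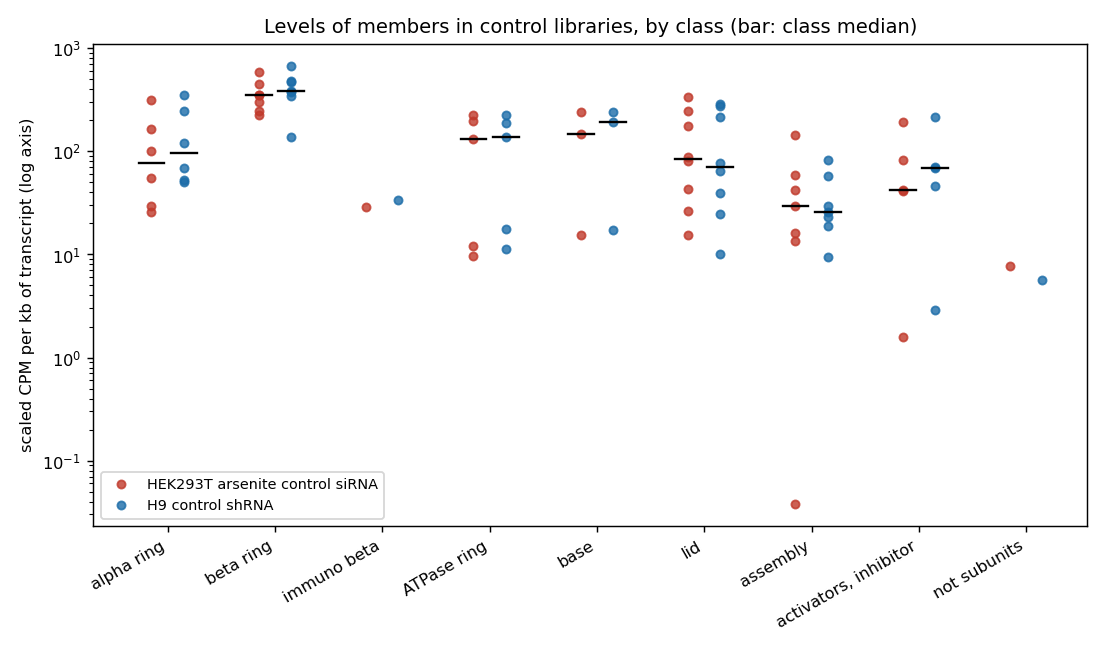
Level in the control libraries, in scaled CPM per kb of transcript on a log axis, for each member, by class: red points are means of the 2 HEK293T arsenite control siRNA libraries, blue points means of the 2 H9 control shRNA libraries, and bars are class medians. The beta ring sits highest, with medians of 355 and 386 CPM per kb, and the lowest point is PSMD5 in HEK293T.

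Depletion of eIF2A in HEK293T under arsenite was accompanied by small rises of proteasome transcripts, among them 11 of the 14 core subunits. At an adjusted p under 0.05 (edgeR's quasi-likelihood test, Benjamini-Hochberg adjustment over 14565 genes), 21 of the 46 members rose and 4 fell. Over all genes tested, 14.1% rose and 14.7% fell. The median log2 fold change was 0.08 over the members and -0.00 over all genes. Both siRNA libraries lay above both controls for 28 members and below both for 8, where the shares over all genes were 28.7% and 30.1%. A total of 7 members rose by at least 1.2-fold and 2 fell as much (6.1% and 7.85% of all genes). The HEK293T controls differed more from each other than replicates of the other groups did (chi-square per degree of freedom 4.91 against 1.35 to 1.8). The test shares 1 spread per gene over all 8 libraries. With the 4 HEK293T libraries alone, 18 of 45 members rose and 3 fell, where 1845 and 1834 of 13294 genes did.

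All 14 subunits of the core had a positive log2 fold change in HEK293T and 11 of them rose, with a median of 0.14. In the beta ring all 7 subunits rose, by 0.08 to 0.34. The calls of PSMB2, PSMB3, PSMB6 and PSMB7 were lost without eIF2A siRNA replicate 1. They were also lost when the trend over GC content and transcript length was removed, as given further on. PSMB1, a structural beta subunit, went from 206 and 215 CPM (controls) to 269 and 264 CPM (siRNA). It rose 1.27-fold (log2 0.34 ± 0.033, adjusted p = 8.4e-10), and the 2 groups did not overlap. The 3 catalytic subunits rose by 0.10 to 0.16, and the structural subunits PSMB2, PSMB3 and PSMB4 by 0.08 to 0.15. PSMB5, which carries the chymotrypsin-like site, went from 397 and 398 CPM to 445 and 442 CPM (log2 0.16 ± 0.031, adjusted p = 1.3e-04). PSMB6, the caspase-like subunit, went from 249 and 271 CPM to 275 and 281 CPM (0.10 ± 0.035, adjusted p = 0.037), and ran from 0.04 to 0.16 when 1 library was left out. PSMB7, the trypsin-like subunit, went from 346 and 351 CPM to 384 and 368 CPM (0.11 ± 0.032, adjusted p = 0.0077). For none of the 3 did the groups overlap, although the higher PSMB6 control (271 CPM) came close to the lower siRNA library (275 CPM). PSMB10, the immunoproteasome counterpart of PSMB7, was level, at 36.4 and 34.8 CPM against 36.7 and 35.4 CPM (0.02 ± 0.057, adjusted p = 0.83). In the alpha ring 4 of 7 subunits rose. PSMA2 had the largest rise of all members, from 40.5 and 37.1 CPM to 53.4 and 52.9 CPM, which is 1.38-fold (0.46 ± 0.050, adjusted p = 8.9e-09).

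The regulatory particle was mixed in HEK293T. All 3 subunits of the base outside the ATPase ring rose, by 0.13 to 0.22. PSMD1, the large scaffold that docks ubiquitin receptors, went from 50.3 and 53.1 CPM to 60.7 and 59.9 CPM (0.22 ± 0.048, adjusted p = 6.0e-04). Of the 6 ATPases, PSMC1 and PSMC2 rose, none fell and the median was -0.01. PSMC1 went from 46.7 and 52.1 CPM to 62.2 and 61.2 CPM (0.31 ± 0.051, adjusted p = 9.2e-06). GENCODE names 13 pseudogenes after PSMC1, more than for the 11 other members that have any, and reads that aligned to more than 1 place were set aside, so its counts are less certain. PSMC6, an ATPase of the same ring, stood lower, at 14.9 and 15.7 CPM against 13.5 CPM in both siRNA libraries (-0.19 ± 0.080, adjusted p = 0.083), and did not pass the test. In the lid 2 of 8 subunits rose and 1 fell. The one that fell, PSMD13, went from 283 and 281 CPM to 262 and 254 CPM (-0.13 ± 0.033, adjusted p = 0.0027).

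Among the chaperones that build the core, the partners PSMG1 and PSMG2 rose together in HEK293T, and the other pair, PSMG3 and PSMG4, did not. PSMG1 went from 61.2 and 65.1 CPM to 77.2 and 77.3 CPM (0.29 ± 0.045, adjusted p = 5.8e-06). PSMG2 went from 24.2 and 21.6 CPM to 26.3 and 29.9 CPM (0.30 ± 0.069, adjusted p = 7.9e-04). PSMG1 and PSMG2 work as a dimer that organises the alpha ring. PSMG4 fell, from 33.9 and 40.8 CPM to 31.7 and 27.9 CPM (-0.34 ± 0.081, adjusted p = 0.0036). PSMG3, its partner, stood at 193 and 209 CPM against 190 and 188 CPM (-0.09 ± 0.037, adjusted p = 0.055). Of the chaperones of the base, PSMD10 (gankyrin) rose from 25.4 and 24.7 CPM to 34.2 and 28.8 CPM (0.33 ± 0.068, adjusted p = 2.2e-04), with 0.21 to 0.45 when 1 library was left out. PSMD9 stood at 115 and 118 CPM against 126 and 124 CPM (0.10 ± 0.041, adjusted p = 0.063), and PSMD5 was at the edge of detection, as given further on.

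None of the 5 activators and inhibitors rose in HEK293T and 2 fell. PSME4 went from 11.6 and 10.7 CPM to 9.82 and 8.5 CPM (-0.27 ± 0.093, adjusted p = 0.023). PSMF1, an inhibitor of the core, went from 294 and 316 CPM to 283 and 275 CPM (-0.13 ± 0.035, adjusted p = 0.0041). PSME1 and PSME2, which form the interferon-inducible cap, and PSME3, its nuclear relative, ran from -0.12 to 0.03 and did not pass. The calls in HEK293T rest on few libraries: 13 of the 21 rises and none of the 4 falls passed the test whichever of the 4 libraries was left out. Each of these fits leaves 1 library in a group. Over all genes each of them called fewer rises and fewer falls than the fit of all 8 libraries, which did not hold for the members in every fit. Without eIF2A siRNA replicate 1 the rises of PSMB2, PSMB3, PSMB6, PSMB7, PSMC2, PSMD10 and PSMD14 were lost. Without eIF2A siRNA replicate 2 no member fell, and the rises of PSMB6, PSMD14 and PSMG2 were lost. Without control replicate 1 8 members fell, and the rises of PSMB2 and PSMB6 and the fall of PSME4 were lost. Without control replicate 2 the rise of PSMD14 and the falls of PSMG4 and PSMF1 were lost. When 1 library was left out, PSMG4 ran from -0.45 to -0.19, PSME4 from -0.38 to -0.17 and PSMF1 from -0.18 to -0.07.

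**Figure D2:**
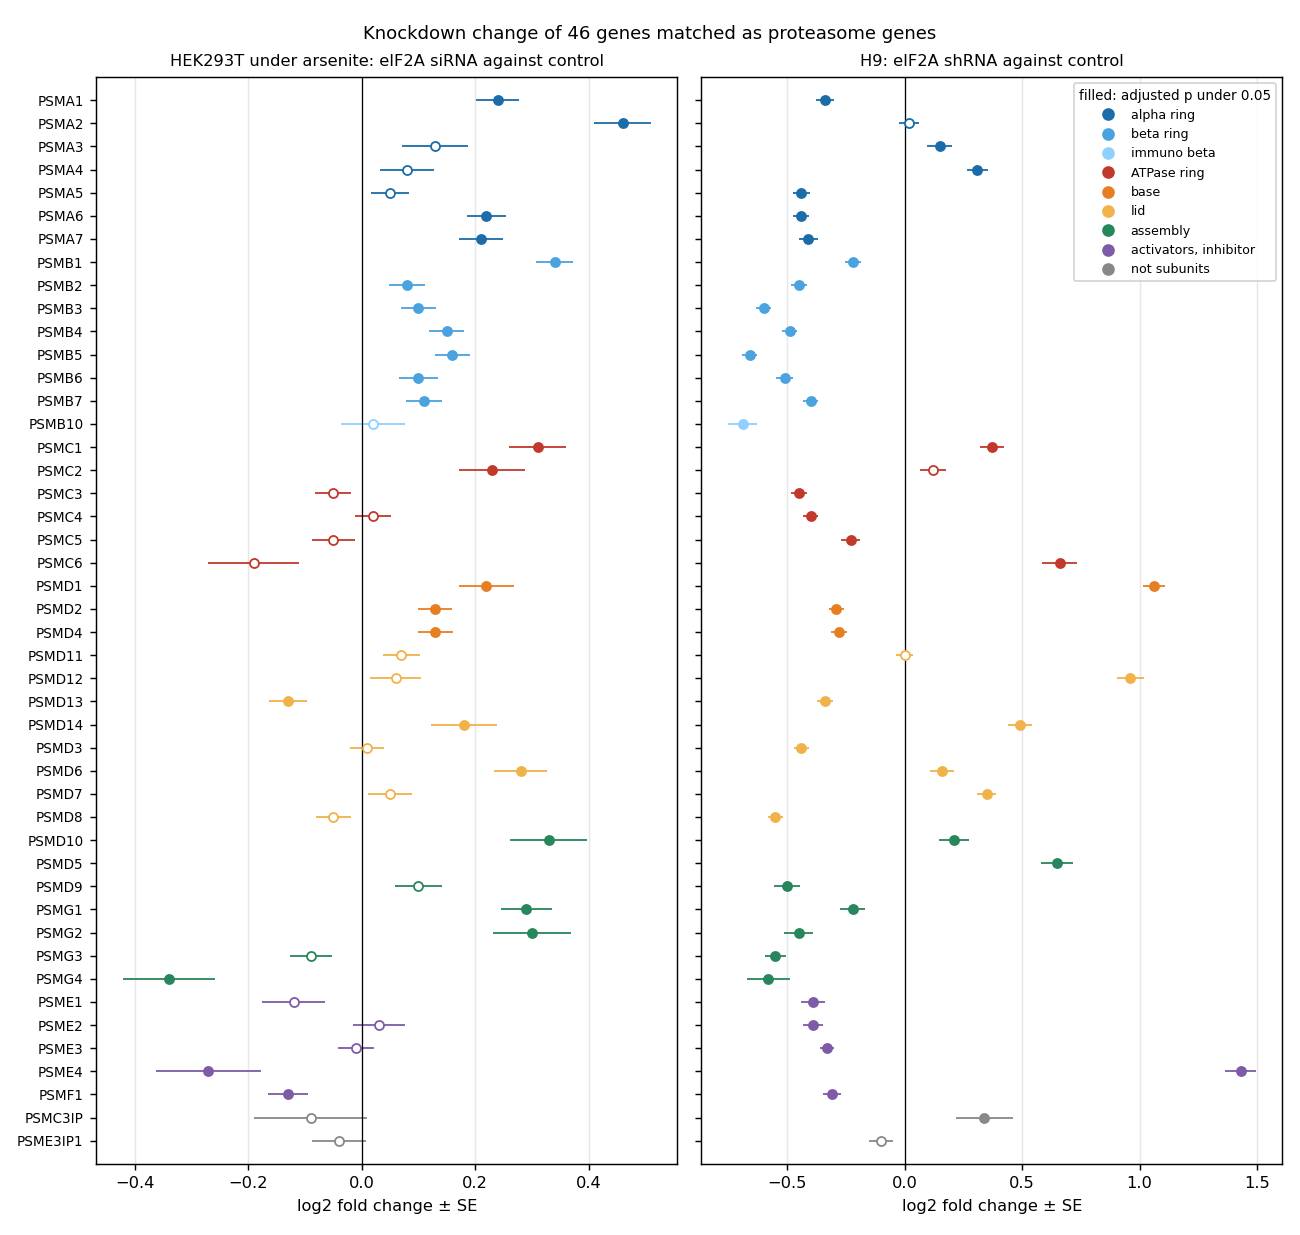
Log2 fold change of each of the 46 genes with eIF2A depletion, with bars for ± 1 SE: left, HEK293T under arsenite (2 siRNA against 2 control libraries), right, H9 (2 shRNA against 2 control libraries), with a wider axis on the right. Filled points passed an adjusted p under 0.05, colours give the class, PSMD5 is not drawn for HEK293T, and the 7 beta subunits lie right of 0 on the left and left of 0 on the right.

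In H9 most members fell, and the changes were larger. With eIF2A shRNA 29 of the 46 members fell and 13 rose, where 34.3% of all genes fell and 37% rose. The median log2 fold change was -0.32 over the members and 0.02 over all genes. Both shRNA libraries lay below both controls for 30 members and above both for 15, against 41% and 43.9% of all genes. All 29 falls and 9 of the 13 rises passed the test whichever of the 4 H9 libraries was left out, the exceptions being PSMA3, PSMD6, PSMD10 and PSMC3IP.

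The core fell in H9: 11 of its 14 subunits were lower, 2 were higher and the median was -0.42. All 7 beta subunits fell, by 0.22 to 0.66 on the log2 scale. PSMB5 went from 530 and 548 CPM (controls) to 341 and 343 CPM (shRNA). That leaves 0.634 of the control level (log2 -0.66 ± 0.031, adjusted p = 3.6e-19). PSMB3, a structural subunit, went from 359 and 367 CPM to 239 CPM in both shRNA libraries (-0.60 ± 0.032, adjusted p = 1.2e-17). PSMB6 went from 333 and 339 CPM to 235 and 239 CPM (-0.51 ± 0.036, adjusted p = 1.0e-14). PSMB7 went from 362 and 370 CPM to 277 and 279 CPM (-0.40 ± 0.033, adjusted p = 4.1e-13), so all 3 constitutive catalytic subunits fell. PSMB1, which had risen most of the ring in HEK293T, fell least, from 318 CPM in both controls to 270 and 276 CPM (-0.22 ± 0.033, adjusted p = 3.2e-07). PSMB10 fell most of all members, from 39 and 42.7 CPM to 25 and 25.6 CPM (-0.69 ± 0.063, adjusted p = 7.3e-12). In none of these 6 did the groups overlap. The alpha ring was less uniform: PSMA1, PSMA5, PSMA6 and PSMA7 fell by 0.34 to 0.44, PSMA3 and PSMA4 rose by 0.15 and 0.31, and PSMA2 was level, at 104 CPM in both controls and 106 and 105 CPM with shRNA (0.02 ± 0.043, adjusted p = 0.65). Summed over the 14 core subunits, the scaled level went from 4118 and 4174 CPM to 3100 and 3101 CPM in H9. In HEK293T it went from 3763 and 3745 CPM to 4202 and 4113 CPM.

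The regulatory particle of H9 split within its complexes. Among the ATPases PSMC3, PSMC4 and PSMC5 fell and PSMC1 and PSMC6 rose. PSMC6 went from 18.7 and 16.8 CPM to 28.4 and 27.7 CPM (0.66 ± 0.074, adjusted p = 1.0e-09). PSMC1 went from 64 and 59.8 CPM to 80.4 and 79.8 CPM (0.37 ± 0.051, adjusted p = 5.2e-08). In the base PSMD1 rose while its fellow scaffold PSMD2 and the ubiquitin receptor PSMD4 fell by 0.29 and 0.28. PSMD1 went from 56.1 and 59.2 CPM to 117 and 123 CPM, which is 2.08-fold (1.06 ± 0.047, adjusted p = 5.7e-20). In the lid PSMD6, PSMD7, PSMD12 and PSMD14 rose, PSMD3, PSMD8 and PSMD13 fell and PSMD11 did not pass. PSMD12, a scaffold of the lid, went from 25.3 and 24.6 CPM to 48.4 and 49.1 CPM, which is 1.95-fold (0.96 ± 0.058, adjusted p = 1.9e-16). PSMD13 fell in H9 as it had in HEK293T, from 338 and 353 CPM to 270 and 277 CPM (-0.34 ± 0.033, adjusted p = 3.9e-11). Although 4 of the 8 lid subunits rose, the lid transcripts summed to 1866 and 1903 CPM in the controls and 1583 and 1607 CPM with shRNA.

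All 4 chaperones of the core fell in H9. PSMG4 fell most, from 34.3 and 38.6 CPM to 23.5 and 25.3 CPM (-0.58 ± 0.090, adjusted p = 1.2e-05). PSMG3 went from 115 and 116 CPM to 80.8 and 77.1 CPM (-0.55 ± 0.043, adjusted p = 1.9e-13). PSMG2 went from 50.6 and 48.8 CPM to 37.4 and 35.2 CPM (-0.45 ± 0.062, adjusted p = 5.8e-08). PSMG1 fell by less, from 51 and 49.5 CPM to 42.6 and 43.6 CPM (-0.22 ± 0.053, adjusted p = 3.6e-04), so the dimer partners PSMG1 and PSMG2, which rose in HEK293T, both fell here. The chaperones of the base did not share a direction. PSMD9 fell from 50.5 and 55.5 CPM to 36.1 and 38.6 CPM (-0.50 ± 0.055, adjusted p = 4.5e-10). PSMD10 rose from 40.5 and 39.3 CPM to 44.7 and 47.6 CPM (0.21 ± 0.063, adjusted p = 0.0039), and PSMD5 rose too. Among the caps, PSME1, PSME2 and PSME3 fell by 0.33 to 0.39 and PSMF1 fell from 174 and 169 CPM to 140 and 137 CPM (-0.31 ± 0.039, adjusted p = 7.6e-09). PSME4 had the largest change of all members. It went from 20.8 and 19.7 CPM to 54.9 and 54.1 CPM, which is 2.69-fold (1.43 ± 0.066, adjusted p = 1.9e-19). PSME4 and PSMD1 were the members that rose at least 2-fold in H9, as did 15.9% of all genes, and no member fell as much, as did 0.899% of all genes.

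**Figure D3:**
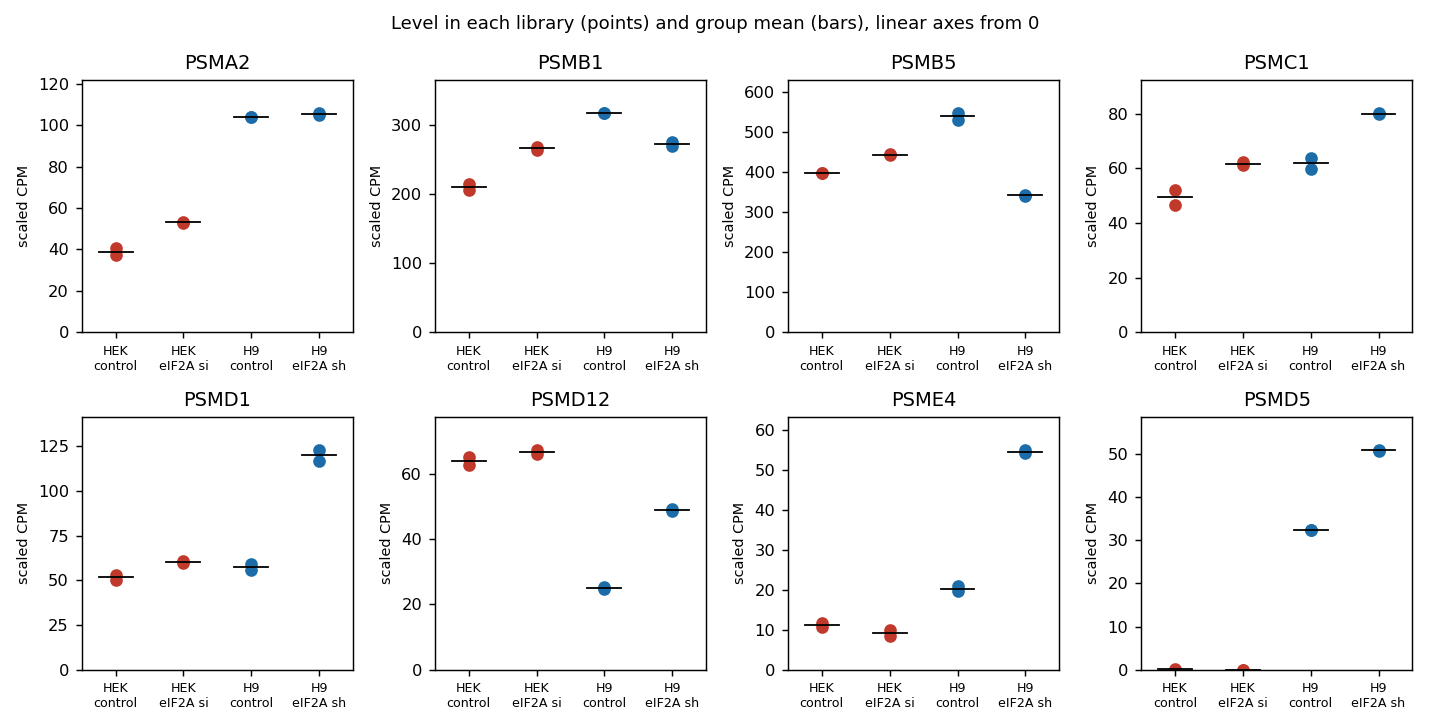
Level of 8 members in each of the 8 libraries, in scaled CPM on linear axes that start at 0: points are libraries, bars are group means, red is HEK293T under arsenite and blue is H9. PSMB1 and PSMB5 rise in HEK293T and fall in H9, PSME4, PSMD1 and PSMD12 rise in H9, and PSMD5 is near 0 in HEK293T.

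The changes in H9 followed the base composition of the transcript, in the members as in all genes. Across 45 members with a GENCODE transcript, Spearman's rho between the H9 log2 fold change and GC content was -0.71, and it was -0.68 across 14400 genes. With transcript length it was 0.43 in the members and 0.45 in all genes. In HEK293T the rho with GC content was -0.27 in the members and -0.10 in all genes. These are descriptions: the genes share the same libraries and are not independent replicates. For 2 of the 45 members, PSMA4 and PSMC1, the transcript was found by symbol and not by the counted accession. The 13 members that rose in H9 had a median GC content of 41.5% and the 29 that fell had 53%. Members were also short, with a median transcript of 1546 nt against 3018 nt over all genes. Under 45% GC 8 of 12 members rose and 2 fell, where 75.5% and 5.43% of all genes did, and the median log2 fold change was 0.26 against 0.85 over all genes. At 45% or more 5 of 33 members rose and 27 fell, where 19.5% and 47.7% of all genes did, and the median was -0.39 against -0.22. With the trend removed as described next, the members' medians were -0.18 against 0.09 under 45% and -0.07 against -0.01 at 45% or more.

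**Figure D4:**
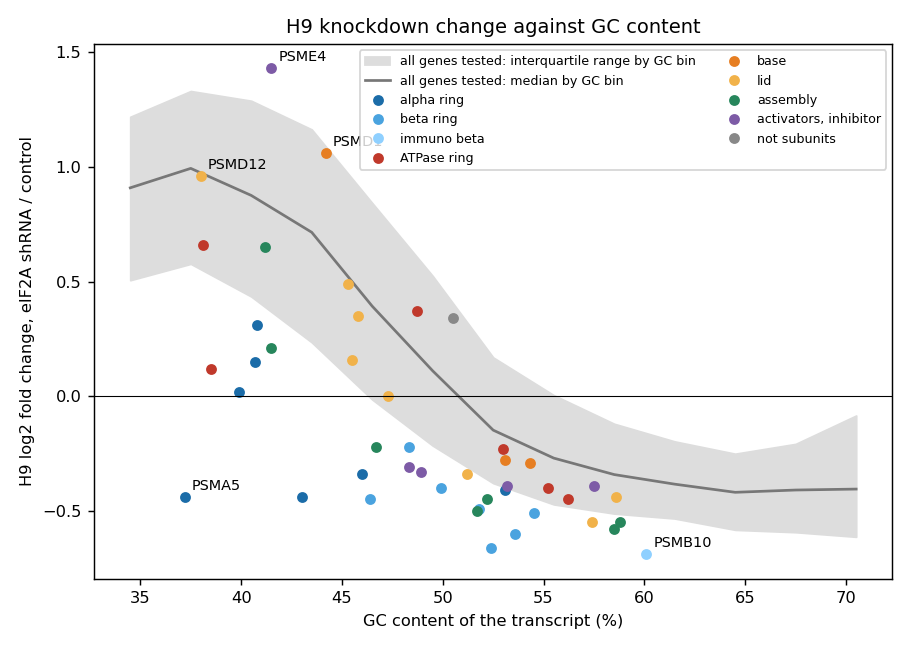
H9 log2 fold change (eIF2A shRNA against control) of 45 members against the GC content of their transcript in percent, coloured by class, over the median (line) and the interquartile range (grey band) of all genes tested in bins of 3 percentage points. Members fall along the slope of all genes (rho -0.71 and -0.68), and the points of the core lie under the line.

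The fit was therefore repeated with each library's trend over GC content and length, estimated on all genes, taken out. In H9 23 members then fell and 9 rose (26.4% and 23.5% of all genes), and the median was -0.10. The 23 include PSME3IP1 (-0.25), which had no GC content or length. It was given each library's mean offset, so no trend of its own was removed. A total of 16 falls and 6 rises were called in both fits. The rises were PSMD1, PSMD7, PSMD12, PSMD14, PSME4 and PSMC3IP, so the lid kept 3 of its 4. The core was lower in this fit too: 11 of 14 subunits fell, none rose and the median was -0.20. Its subunits were in part other ones. PSMB5 fell by 0.28, PSMB7 by 0.15 and PSMB4 by 0.11, whereas PSMB3 (-0.07) and PSMB6 (0.04) did not pass. PSMA2, level as measured, fell (-0.51). The call turned for 6 members: PSMA3 (-0.25), PSMA4 (-0.10) and PSMD10 (-0.29), higher as measured, were called lower, and PSMC5 (0.10), the ubiquitin receptor PSMD4 (0.08) and PSME2 (0.11), lower as measured, were called higher. PSMB10 no longer passed, at -0.10. Of the other named members PSMC1 (0.05), PSMC6 (0.10), PSMG3 (-0.02), PSMG4 (0.15) and PSMD5 (-0.11) did not pass either. The values of PSMA4 (adjusted p = 0.041 in this fit) and PSMC1 rest on transcripts found by symbol only, so they are less certain. PSME4 kept 0.41 of its 1.43, PSMD1 0.48 of 1.06 and PSMD12 0.28 of 0.96. PSMA5 had the lowest value, -1.26 against -0.44 as measured, which rests on a GENCODE model of 3729 nt, longer than that of any other core subunit. The ATPase ring (0.03) and the lid (-0.05) had medians near 0 with the opposite sign to those as measured (-0.05 and 0.08).

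In HEK293T the trend took less away. A total of 16 members rose and 6 fell (14.5% and 13% of all genes). All 16 were among the 21, and the 5 that no longer passed were PSMB2, PSMB3, PSMB6, PSMB7 and PSMD14. The core then had 7 rises, no fall, a median of 0.08 and 13 positive values of 14. PSMB1 kept 0.26, PSMB5 0.11, PSMA2 0.39, PSMG1 0.22 and PSMG2 0.28.

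**Figure D5:**
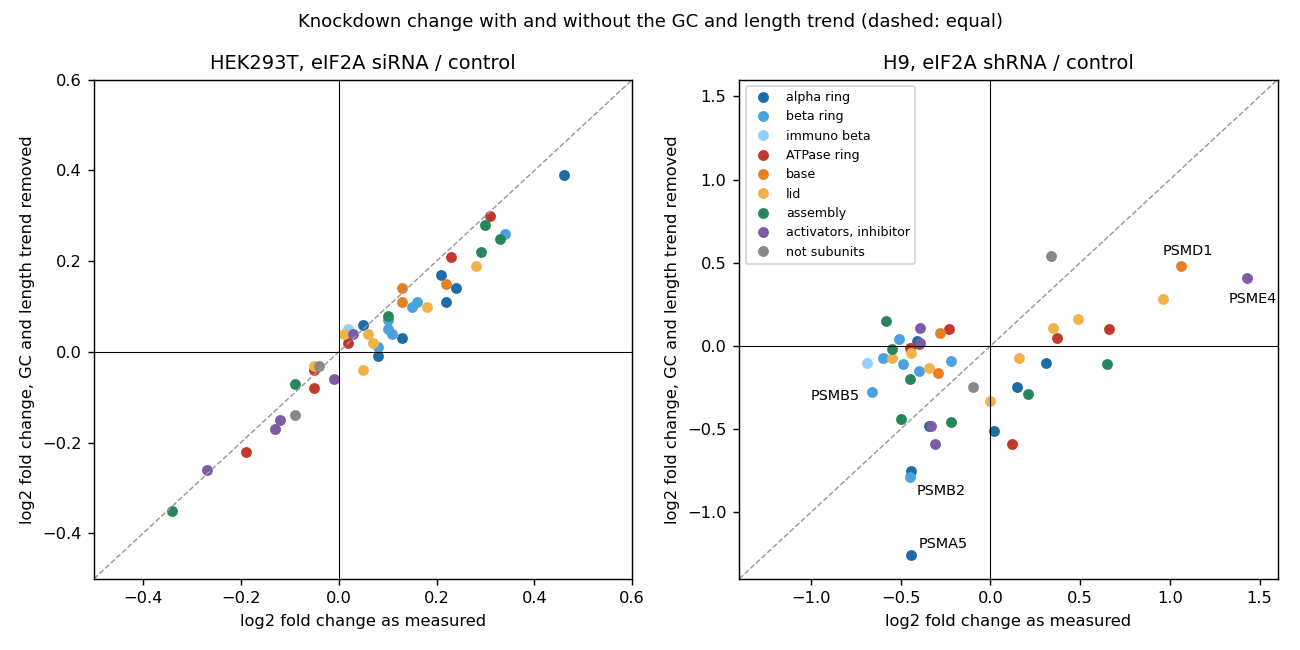
Log2 fold change of each member as measured (x axis) and after removal of the GC and length trend (y axis), HEK293T on the left and H9 on the right, coloured by class, with a dashed line where both are equal. HEK293T points stay near the line, and H9 points move further from it, with 11 of the 14 core subunits still lower at an adjusted p under 0.05.

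The knockdown changes of the lines were compared directly, as the H9 change minus the HEK293T change of each gene. A total of 29 members were lower in this difference and 8 were higher, where 27% and 31.1% of all genes were, and the median was -0.41 against 0.05. In the core 12 of 14 subunits were lower and 1, PSMA4, was higher, and in the beta ring all 7 were lower, by 0.51 to 0.81. PSMB5 had the lowest value of all members, -0.81 ± 0.044 (adjusted p = 6.7e-17), followed by PSMG2, -0.76 ± 0.093 (adjusted p = 1.2e-08), and PSMB10, -0.71 ± 0.085 (adjusted p = 7.1e-09). Among the members that passed, PSME4 had the highest, 1.70 ± 0.11 (adjusted p = 1.5e-14), followed by PSMD12, 0.90 ± 0.074 (adjusted p = 1.8e-12), and PSMC6, 0.84 ± 0.11 (adjusted p = 3.9e-08). With the trend removed 23 members, among them PSME3IP1 with its mean offset, were lower and 8 higher (22.9% and 19.6% of all genes). All 14 core subunits had a negative value and 11 of them passed. A total of 16 members were lower in both fits, 10 of them of the core. The ATPase ring and the lid had no common direction, with medians of 0.01 and 0.00 after removal.

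Read gene by gene, 14 members rose in HEK293T and fell in H9: the 7 beta subunits, PSMA1, PSMA6, PSMA7, PSMD2, PSMD4, PSMG1 and PSMG2. Over all genes tested 5.81% had this pair of calls, and 6.39% with the trend removed. For 8 of the 14, PSMA1, PSMA6, PSMB1, PSMB4, PSMB5, PSMD2, PSMG1 and PSMG2, both calls were made with the trend removed as well. PSMC1, PSMD1, PSMD6, PSMD10 and PSMD14 rose in both lines (5.19% of all genes did), PSMD13, PSMF1 and PSMG4 fell in both (8.74%), and PSME4 fell in HEK293T and rose in H9 (3.19%). Across the 46 members Spearman's rho between the 2 lines' changes was 0.08, a description only.

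Before any depletion the lines differed too. Between the control groups, H9 minus HEK293T under arsenite, 27 members were higher in H9 and 14 lower (42.3% and 41.2% of all genes). The 27 include PSMD5, which passed the count minimum through H9 alone. Without it 26 of 45 members were higher and 14 lower. Upper-quartile scaling lowers the median of all genes in this comparison from 0.00 to -0.155. With it 19 of the 46 members were higher and 20 lower, where 5418 and 6908 of 14565 genes were. In the core 11 subunits were higher in H9 and 1, PSMB2, was lower, and in the lid 3 were higher and 5 lower. PSMA2 was higher by 1.42 ± 0.048 (adjusted p = 1.1e-24) and PSMG2 by 1.13 ± 0.066 (adjusted p = 1.6e-17). PSMD12 was lower by a log2 difference of -1.35 ± 0.056 (adjusted p = 4.4e-22) and PSMD9 by -1.14 ± 0.047 (adjusted p = 7.0e-22).

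PSMD5, a chaperone that holds ATPases of the base during assembly, was nearly absent from the HEK293T libraries. It had 6 and 0 counts in the controls and 1 count in each siRNA library, where 3 counts correspond to 0.0943 to 0.131 CPM. In H9 it had 692 and 654 counts in the controls (32.3 CPM in both) and 1311 and 1200 with shRNA (50.7 and 50.9 CPM). The summed control counts, scaled by library size, stood 295 times higher in H9, with an exact 95% interval of 135 to 804 that covers counting error only. PSMD5 passed the count minimum through H9 alone. No change with eIF2A siRNA could be detected at this depth in HEK293T, and in H9 PSMD5 rose 1.57-fold (0.65 ± 0.068, adjusted p = 1.9e-10), a call that was lost with the trend removed. The sequence upstream of the gene is shown because no other member differed as much between the lines. It is the 188 bases upstream of the gene as GENCODE 29 draws it, on the minus strand of chr9:120842985-120843172 (GRCh38.p14, sequence from RefSeq), and it ends 62 bases before the start that RefSeq gives. It holds 11 CpG pairs, which are in capitals, and nothing was measured at this DNA in these libraries.
PSMD5: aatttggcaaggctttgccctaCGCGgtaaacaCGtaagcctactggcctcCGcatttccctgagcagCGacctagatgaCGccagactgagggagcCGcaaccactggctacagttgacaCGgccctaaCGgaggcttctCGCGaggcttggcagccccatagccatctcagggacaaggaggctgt

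A further 26 genes of the pathway without a PSM symbol were read from the same fit. In HEK293T 6 rose and 7 fell, where 14.1% and 14.7% of all genes did. In H9 11 rose and 13 fell, where 37% and 34.3% of all genes did, and with the trend removed 7 rose and 11 fell (23.5% and 26.4% of all genes). Of the 4 subunits and assembly factors among them, 2 rose and 1 fell in HEK293T and all 4 fell in H9. POMP, the maturation factor of the beta ring, rose in HEK293T from 45 and 47.7 CPM to 58.5 and 61.5 CPM (0.37 ± 0.049, adjusted p = 4.2e-07). In H9 POMP fell from 80.7 and 76.7 CPM to 70.5 and 72.7 CPM (-0.14 ± 0.048, adjusted p = 0.011). SEM1, a small subunit of the lid, rose in HEK293T from 38.6 and 44.1 CPM to 54.7 and 50.1 CPM (0.33 ± 0.058, adjusted p = 3.2e-05). In H9 SEM1 fell from 74.3 and 80.6 CPM to 55.8 and 57.4 CPM (-0.45 ± 0.056, adjusted p = 9.2e-09). ADRM1, a ubiquitin receptor of the base, fell in H9 from 426 and 436 CPM to 296 and 308 CPM (-0.51 ± 0.033, adjusted p = 1.1e-15) and had 0.03 with the trend removed.

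Of 5 genes listed for the transcriptional control of proteasome genes, 1 rose and 1 fell in HEK293T. In H9 3 rose and 2 fell, where 37% and 34.3% of all genes did. With the trend removed 1 rose and 2 fell in H9. The transcript of NRF1 itself rose in HEK293T and fell in H9. NFE2L1 rose in HEK293T from 140 and 141 CPM to 152 and 155 CPM (0.12 ± 0.034, adjusted p = 0.0052). In H9 it fell from 642 and 654 CPM to 487 and 499 CPM (-0.40 ± 0.031, adjusted p = 1.3e-13), and by 0.36 with the trend removed. Its protein was not measured. NGLY1, the deglycosylase that activates NRF1, rose in H9 from 7.65 and 7.6 CPM to 18.1 and 15.1 CPM (1.12 ± 0.11, adjusted p = 3.7e-11). NFE2L2 and DDI2 of the same list rose in H9 too, by 0.93 ± 0.13 and 1.35 ± 0.21. With the trend removed NFE2L2 (0.32) and DDI2 (0.30) did not pass. VCP, the ATPase that extracts NRF1 and other substrates from membranes, fell in HEK293T from 751 and 719 CPM to 694 and 693 CPM (-0.08 ± 0.030, adjusted p = 0.036), a call that was lost with the trend removed (adjusted p = 0.073).

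Genes that bring or prepare substrates had no common direction: of 5 shuttle receptors 1 rose and 2 fell in HEK293T and 2 rose and 2 fell in H9. RAD23B, a shuttle that brings ubiquitinated proteins, rose in both lines, from 103 and 104 CPM to 139 and 138 CPM in HEK293T (0.42 ± 0.039, adjusted p = 3.5e-10) and from 101 and 102 CPM to 145 and 155 CPM in H9 (0.56 ± 0.040, adjusted p = 2.0e-14). With the trend removed RAD23B had -0.22 in H9 and was called lower (adjusted p = 1.2e-05). UBQLN4, another shuttle, fell in H9 from 203 and 207 CPM to 134 and 128 CPM (-0.64 ± 0.038, adjusted p = 9.3e-17). Among regulators bound to the particle, ECPAS rose in H9 from 33.2 and 31 CPM to 78.7 and 76 CPM (1.27 ± 0.056, adjusted p = 6.0e-20) and USP14, a deubiquitinase, from 43.4 and 42.7 CPM to 71.6 and 69.3 CPM (0.71 ± 0.053, adjusted p = 4.8e-14). With the trend removed ECPAS had 0.50 in H9, whereas USP14 had -0.23 and was called lower (adjusted p = 3.8e-04). In HEK293T AKIRIN2, which brings proteasomes into the nucleus, fell from 138 and 147 CPM to 126 and 129 CPM (-0.16 ± 0.040, adjusted p = 0.0029), and the redox protein TXNL1 rose from 69.7 and 75 CPM to 79.9 and 84 CPM (0.18 ± 0.046, adjusted p = 0.0036). Of the enzymes that activate ubiquitin, UBA1 fell in HEK293T from 1952 and 1933 CPM to 1650 and 1697 CPM (-0.21 ± 0.029, adjusted p = 3.4e-07). UBA6 fell in HEK293T, from 5.31 and 4.46 CPM to 3.57 and 3.46 CPM (-0.46 ± 0.14, adjusted p = 0.015), and rose in H9, from 3.4 and 2.76 CPM to 8.7 and 8.4 CPM (1.47 ± 0.15, adjusted p = 6.2e-11). With the trend removed UBA6 had 0.37 in H9, and its HEK293T value, -0.32, did not pass (adjusted p = 0.096). UBB, a polyubiquitin gene, fell in H9 from 1240 and 1268 CPM to 923 and 912 CPM (-0.45 ± 0.029, adjusted p = 8.8e-16).

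The promoters were read for the letters of the antioxidant response element, since NRF1 is known to bind it at proteasome genes. RefSeq's promoter table (GRCh38.p14) held 40 of the 46 members. The core TGACNNNGC, on either strand within the 250 bases before the start, was in 12 of the 40 (30%) and in 14.9% of 15180 genes of the count files. The stricter form TGACTCAGC, which is one of its spellings, was in none of the 40 and in 0.553% of all. CCAAT was in 19 of the 40 (47.5%) and in 40.6% of all. Of the 12 members with TGACNNNGC, 3 rose and 1 fell in HEK293T and 4 rose and 8 fell in H9. Of the 28 without it, 13 rose and 3 fell in HEK293T and 9 rose and 15 fell in H9. Over all genes tested 14.1% rose and 14.7% fell in HEK293T, and 37% rose and 34.3% fell in H9. A match is a run of letters and not a bound site. Windows of 30 bases around 6 of the matches are shown, written 5′ to 3′ along the gene with the matched letters in capitals. They come from members that fell in H9 as measured and members that rose. PSMB3 (chr17:38752627-38752656, plus strand), PSMD3 (chr17:39980760-39980789, plus strand) and PSMG1 (chr21:39183615-39183644, minus strand) fell in H9. PSMA4 (chr15:78540650-78540679, plus strand), PSMD12 (chr17:67366723-67366752, minus strand) and PSME4 (chr2:53971008-53971037, minus strand) rose. With the trend removed PSMB3 (-0.07) and PSMD3 (-0.04) did not pass in H9, and PSMA4 (-0.10) was called lower. The PSME4 match lies on the strand opposite to the gene, so its letters read in reverse complement.
PSMB3: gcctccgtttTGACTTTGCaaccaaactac
PSMD3: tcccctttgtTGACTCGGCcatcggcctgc
PSMG1: gcccagggcaTGACAGCGCgggcgggcggt
PSMA4: gtgggcacgaTGACTCTGCaccgcctcctc
PSMD12: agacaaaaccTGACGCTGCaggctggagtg
PSME4: cccggcggctGCAGCGTCAccagcagagcc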

How the data were processed

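Polyadenylated RNA was sequenced in 8 libraries. TRIzol extraction and TruSeq Stranded mRNA libraries are stated per the labels. The submitters' processing notes name cutadapt, STAR 2.5.2b and hg19. The files deposited by the authors hold raw, unnormalized counts per RefSeq accession (whole numbers with different sums). Which counter, strand setting and annotation produced them is not given in the sources used here. A gene and an antisense partner may share counts (PSMA3, PSMD6 and PSMG3 are examples and not a full list). The 5 special counters were left out; reads in no feature were 14.95 to 20.84% of reads, and reads aligned to more than 1 place, 4.11 to 4.54%, were set aside, which makes the 12 members with named pseudogenes less certain. Symbols came from a RefSeq table for 18884 accessions and from GENCODE for 227, and 194 had none.

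Since no label names separate cultures, p-values cover only the spread between these samples, and this may be technical. No duplicates were found: chi-square per degree of freedom between replicates was 4.91 for the HEK293T controls and 1.35 to 1.80 elsewhere. The test was edgeR 4.0.16 under R 4.3.3 (filterByExpr, TMM, 4 group means on all 8 libraries, 4 residual degrees of freedom, robust quasi-likelihood F test, two-sided, Benjamini-Hochberg adjustment over 14565 genes, call at 0.05). SEs come from the F statistic, and CPM are counts per TMM-scaled library size. The scripts were tested on simulated data. GC content and length came from GENCODE 29 transcripts of the counted accession, or of the symbol where no transcript carried it (PSMA4 and PSMC1 among the members). Their trend was estimated per library with splines of 5 degrees of freedom and entered as an offset. Genes without them were given the library's mean offset. The members and lists were chosen with earlier results of these data known. Named genes were EIF2A, the 4 largest called rises and falls per line, the 3 largest differences in each direction, PSMB5, PSMB6, PSMB7 and PSMB10, every assembly chaperone, the 2 pathway genes of smallest p per list and line (1 of these is not reported here), and NFE2L1; others are given by class. Alternatives were DESeq2's size factors, upper-quartile scaling, no filter, at least 5 CPM, DESeq2 1.42.0, only a line's 4 libraries, the set number as a block, the trend removed, a change of at least 1.2-fold, the 44 members without PSMC3IP and PSME3IP1, and each library left out.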

Additional observations from a re-analysis of the deposited data

Results flagged for a closer look

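The knockdown change differed between the lines, by edgeR's test of the difference itself (H9 minus HEK293T, adjusted p under 0.05), for 37 members. By the same test 31.1% of all genes were higher and 27% were lower. Once the trend was taken out, 16 of these members were still called lower and 6 still higher. PSMC5 then turned to 0.18 and was called higher (adjusted p = 0.003), and PSMA4 had -0.09 and did not pass (adjusted p = 0.24). The values that follow are the log2 differences as measured. In the alpha ring they were -0.58 for PSMA1, -0.44 for PSMA2, 0.22 for PSMA4, -0.49 for PSMA5, -0.67 for PSMA6 and -0.62 for PSMA7. In the beta ring and PSMB10 they were -0.56 for PSMB1, -0.53 for PSMB2, -0.70 for PSMB3, -0.64 for PSMB4, -0.81 for PSMB5, -0.60 for PSMB6, -0.51 for PSMB7 and -0.71 for PSMB10. In the ATPase ring they were -0.40 for PSMC3, -0.42 for PSMC4, -0.18 for PSMC5 and 0.84 for PSMC6. In the base and lid they were 0.84 for PSMD1, -0.42 for PSMD2, -0.41 for PSMD4, -0.45 for PSMD3, 0.30 for PSMD7, -0.50 for PSMD8, 0.90 for PSMD12, -0.21 for PSMD13 and 0.31 for PSMD14. Among chaperones they were -0.61 for PSMD9, -0.51 for PSMG1, -0.76 for PSMG2 and -0.46 for PSMG3. Among caps and the inhibitor they were -0.28 for PSME1, -0.42 for PSME2, -0.32 for PSME3, 1.70 for PSME4 and -0.18 for PSMF1, and for PSMC3IP the value was 0.43.

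Outside the counted genes, the H9 library with eIF2A shRNA, replicate 1, had 20.84% of its reads in no counted feature, above the 18.84 and 18.39% of the H9 controls.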

How the results depend on the processing

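As reported, the median log2 fold changes of all members, core, ATPases, lid and chaperones (PSMD5 included) were 0.08, 0.14, -0.01, 0.06 and 0.10 in HEK293T and -0.32, -0.42, -0.05, 0.08 and -0.45 in H9. With DESeq2's size factors, and with DESeq2 itself, which lower the H9 median of all genes from 0.024 to -0.126, the H9 medians were -0.48 (all members), -0.58 (core), -0.21 (ATPases), -0.08 (lid) and -0.61 (chaperones), PSMA2 had -0.14 in H9, and the members higher in the difference numbered 5 and 4. The split of all genes in the difference, 4532 higher and 3935 lower, became 3730 and 5051 with those size factors, and DESeq2 called 1326 and 1416 genes in HEK293T in place of 2048 and 2134 (3389 genes had no adjusted p). With upper-quartile scaling the H9 medians were -0.25, -0.35, 0.02, 0.15 and -0.38 in the same order, and the HEK293T chaperone median was 0.09. At a minimum of 5 CPM they were -0.27, -0.37 and -0.00 for all members, core and ATPases, and -0.40 for chaperones. With a line's 4 libraries only, the HEK293T chaperone median was 0.20, since PSMD5 was not tested. With the trend removed the HEK293T medians were 0.04 (all), 0.08 (core), 0.03 (lid) and 0.08 (chaperones), and the H9 medians -0.10, -0.20, 0.03, -0.05 and -0.20. A total of 15 members changed sign in H9, among them the named members PSMA2 (-0.51), PSMB6 (0.04), PSMD10 (-0.29), PSMD5 (-0.11) and PSMG4 (0.15), and 7 pathway genes rose there in place of 11. With at least 1.2-fold, 7 members rose and 2 fell in HEK293T. The cause of these shifts was not tested.

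With each library left out, the members that rose and fell in HEK293T ran from 14 to 22 and from 0 to 8, and in H9 from 10 to 14 and from 29 to 30. In HEK293T the medians ran from 0.06 to 0.10 (all), 0.13 to 0.16 (core), -0.03 to 0.03 (ATPases), 0.03 to 0.06 (lid) and 0.09 to 0.25 (chaperones). In H9 they ran from -0.33 to -0.29, -0.44 to -0.40, -0.08 to -0.03, 0.04 to 0.11 and -0.46 to -0.41. PSMB10 in HEK293T ran from -0.01 to 0.05, with -0.00 without eIF2A siRNA replicate 1, and the pathway genes that fell there from 3 to 6.

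The set 1 minus set 2 differences of control and knockdown correlated at -0.015 in HEK293T and 0.005 in H9, so no shared set difference was seen across all genes. These values cannot show whether samples of the same set number were handled as pairs. With the number as a block, 19 members rose and 4 fell in HEK293T and 13 rose and 29 fell in H9. Of the named members, PSMB6 in HEK293T lost its call (adjusted p = 0.055).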
